A study of Homo sapiens with 6 samples.

Results

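The 10 genes described here encode the SR proteins SRSF1, SRSF2, SRSF3, SRSF4, SRSF5, SRSF6, SRSF7, SRSF8, SRSF9 and SRSF11, taken by symbol from the 60623 genes measured. SRSF10, the SR protein gene that was knocked down, was kept apart. Each symbol had 1 row in the files. RNA-seq was done on 6 samples of cells labelled Huh7, a hepatocellular carcinoma line. The 3 controls carry the genotype label WT and titles starting with NC, and the other 3 carry the genotype label SRSF10 knockdown, which the series title marks as a short hairpin knockdown. No drug or other agent is given for either group. The labels say neither whether the controls carried a hairpin of their own, nor how many hairpins or clones were used, nor whether replicates were separate cultures, so a response to delivery and a response to the loss of SRSF10 cannot be told apart. The p-values rest on variation among the samples of a group, and this variation may be only technical.

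SR proteins join RNA-binding domains to a tail rich in arginine and serine. They bind enhancer sequences in exons, help the spliceosome define exon ends, and several of them also shuttle to the cytoplasm and act in export or translation. Kinases of the SRPK and CLK families phosphorylate the tail. SR protein genes are known to be regulated by their own products and by each other, largely through alternative exons that bring in an early stop codon and send the transcript to nonsense-mediated decay. The question was whether the other SR genes changed level when SRSF10 was lowered.

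The annotation used (GENCODE release 29, GRCh38) lists decay-class transcripts for all 10 genes. In 5 of them these include internal exons, 9 in all with some overlapping each other, that no protein-coding transcript of the gene overlaps and that hold the stop codon: SRSF3, SRSF4, SRSF6, SRSF7 and SRSF9. The files give 1 value per gene, so productive and decay-class transcripts are added together. Stretches from the start of such an exon to its stop codon, in capitals, are shown for 3 genes whose level fell (SRSF3, SRSF6 and SRSF7) and for SRSF4, whose level did not pass the test, because these exons are the part of the gene that the gene-level values cannot resolve.
SRSF3 exon of 456 bases, chr6:36599821-36599854, plus strand: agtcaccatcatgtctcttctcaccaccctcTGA
SRSF6 exon of 268 bases, chr20:43459153-43459304, plus strand: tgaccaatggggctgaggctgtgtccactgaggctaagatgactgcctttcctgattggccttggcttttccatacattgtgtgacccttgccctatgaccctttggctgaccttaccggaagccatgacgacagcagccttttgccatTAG
SRSF7 exon of 449 bases, chr2:38749319-38749346, minus strand: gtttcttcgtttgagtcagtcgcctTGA
SRSF4 exon of 175 bases, chr1:29166009-29166064, minus strand: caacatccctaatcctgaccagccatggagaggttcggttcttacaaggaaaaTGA
SRSF4 exon of 195 bases, chr1:29160018-29160058, minus strand: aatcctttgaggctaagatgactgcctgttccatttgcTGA

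All 3 knockdown libraries had less of the targeted gene than any control. SRSF10 (ENSG00000188529) measured 18.6, 19.5 and 19.8 FPKM (fragments scaled to gene length and to library size) in control libraries, against 10.6, 10.8 and 10.6 FPKM after knockdown, a mean 44.8% lower (log2 fold change -0.80, 95% interval -0.89 to -0.71, limma adjusted p = 0.000166; exact two-sided permutation p = 0.1, the smallest that 3 against 3 samples allow). Each library held an estimated 12720000 to 14380000 fragments, a figure read from the spacing of its lowest values. At that depth SRSF8 rested on 250 to 320 estimated fragments per library, a counting error of up to 6.32%, and every other SR gene on at least 1009, a counting error of up to 3.15%. Of 12 hepatocyte and hepatoma markers only the fibrinogen chain gene FGB and the transcription factor gene HNF4A reached 1 FPKM in a library, AFP stayed between 0.669 and 0.958 FPKM, and APOA2, TTR and GPC3 were listed at 0 in all 6 libraries, so most defining markers of the labelled cell type were absent or low. Among those under 1 FPKM, mean ALB was 0.150 FPKM in control and 0.624 FPKM in knockdown libraries, SERPINA1 0.106 and 0.623 FPKM, and APOB 0.593 and 0.386 FPKM, each without overlap of the groups. The sum over the 12 was 11.6 to 13.8 FPKM in control and 12.5 to 13.9 FPKM in knockdown libraries. Of the epithelial markers 3 of 4 reached 1 FPKM, and none of 4 mesenchymal and none of 4 leukocyte markers did. The summed level of 3 endothelial markers was 5.40 to 6.06 FPKM in the controls and 9.41 to 10.7 FPKM in the knockdown. Mean KDR was 0.502 FPKM in control and 3.09 FPKM in knockdown libraries (limma adjusted p = 0.00115). KDR reached 1 FPKM only in the knockdown libraries, so it entered the test through the group where it was high. Mean PECAM1 was 5.28 and 6.85 FPKM (limma adjusted p = 0.0373), and CDH5 stayed under 0.05 FPKM throughout. Their part in the results below was not tested. In bulk RNA a change in the RNA per cell cannot be told apart from a change in the make-up of the cells.

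Of the 10 SR genes 6 fell in the knockdown and 0 rose (limma, adjusted p under 0.05). Those that fell were SRSF1, SRSF2, SRSF3, SRSF6, SRSF7 and SRSF8, by 8.45% to 22.4%. Over all 12191 tested genes 12.5% fell and 12.6% rose, and among the 5882 genes with mean levels in the range of the SR genes 16.9% fell. At an unadjusted limma p under 0.05, 8 of the 10 SR genes were lower and 0 higher. Over all 12191 tested genes that unadjusted threshold gave 2349 lower and 2214 higher. For 8 of the 10 every knockdown library lay below every control library, which held for 22% of all tested genes. All 10 passed the filter of 1 FPKM in every library, so none entered this fit through 1 group alone. The median log2 fold change was -0.15 over the SR genes and -0.01 over all genes tested. On the 8 chromosomes that hold the SR genes, the other tested genes had median log2 fold changes of -0.02 to -0.003. Parts of a chromosome were not examined.

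**Figure D1:**
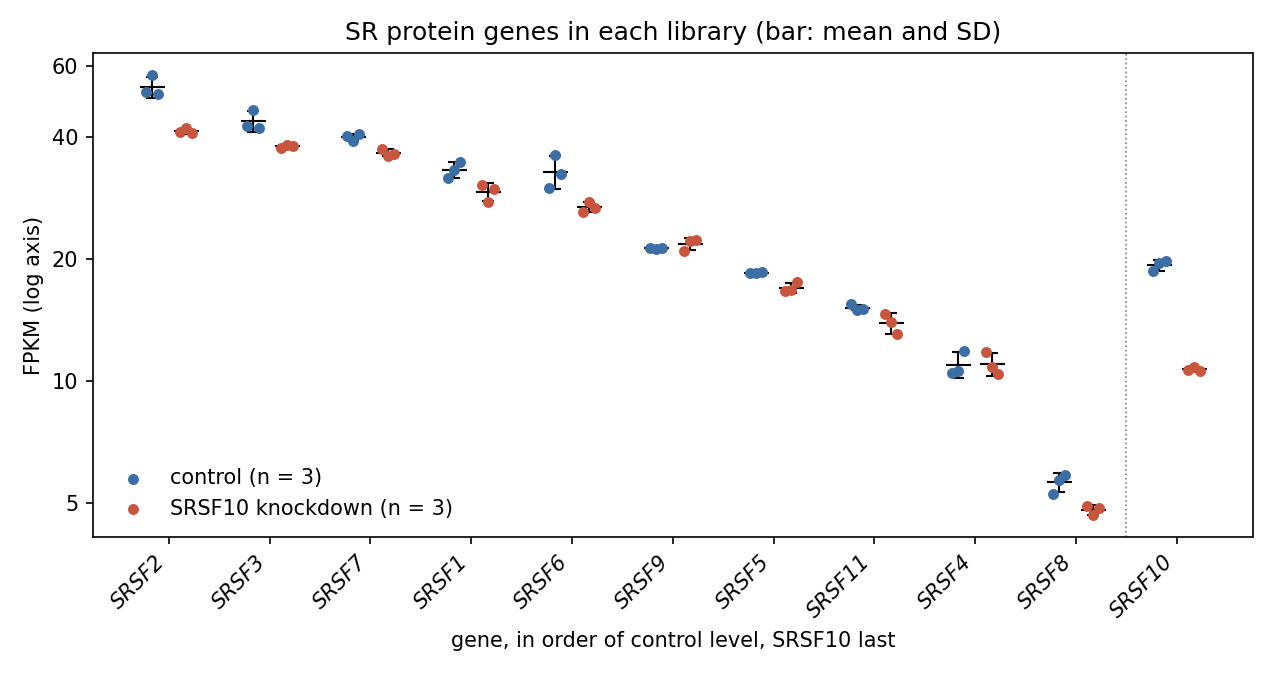
FPKM of each SR protein gene (log axis) in the 3 control libraries (blue) and the 3 knockdown libraries (red), with mean and SD. SRSF2 is the most abundant member in both groups, the groups are apart for 8 of the 10 members, and SRSF10 is shown on the right for comparison.

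SRSF2 showed the largest difference of the family. This protein, long known as SC35, marks nuclear speckles and stays largely in the nucleus. SRSF2 (ENSG00000161547, GRCh38 chromosome 17, 76734115 to 76737374, minus strand) measured 51.7, 57.0 and 51.1 FPKM in control libraries, against 41.1, 42.0 and 40.9 FPKM after knockdown. The knockdown libraries were close to each other and all lay under the lowest control. The knockdown mean of 41.3 ± 0.62 FPKM was 22.4% below the control mean of 53.3 ± 3.2 FPKM (each ± SD, n = 3), with a log2 fold change of -0.36 (95% interval -0.47 to -0.24, limma adjusted p = 0.003). Exons of MFSD11, a gene on the opposite strand, cover 36.7% of the exon bases of SRSF2, and because the strand setting of the counting is not known, reads from this pair cannot be assigned to either gene with certainty. MFSD11 averaged 3.94 ± 0.37 FPKM in control and 3.88 ± 0.31 FPKM in knockdown libraries (adjusted p = 0.892). The microRNA gene MIR636 inside SRSF2 was listed at 0.

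SRSF8, a retrocopy relative of SRSF2, was the least abundant member. SRSF8 (ENSG00000263465, chromosome 11, 95067197 to 95071224, plus strand) measured 5.27, 5.70 and 5.86 FPKM in control libraries, against 4.89, 4.65 and 4.86 FPKM after knockdown. The groups did not overlap, but the gap between them, 4.89 to 5.27 FPKM, was narrower than the spread of the controls. It fell by 14.4%, with a log2 fold change of -0.19 (95% interval -0.31 to -0.06, limma adjusted p = 0.0414). No stretch of 50 bases in the protein-coding transcripts of SRSF8 is shared with those of SRSF2, nor between any other pair of the 10 genes.

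SRSF3 and SRSF7, related shuttling proteins that act in mRNA export, were the next most abundant. SRSF3 (ENSG00000112081, chromosome 6, 36594353 to 36605600, plus strand) measured 42.5, 46.7 and 42.2 FPKM in control libraries, against 37.6, 38.3 and 38.0 FPKM after knockdown. It fell by 13.3%, with a log2 fold change of -0.20 (95% interval -0.31 to -0.09, limma adjusted p = 0.0197). SRSF7 (ENSG00000115875, chromosome 2, 38743599 to 38751494, minus strand) measured 40.3, 39.1 and 40.6 FPKM in control libraries, against 37.5, 36.0 and 36.4 FPKM after knockdown. It fell by 8.45%, the smallest difference among those called, with a log2 fold change of -0.12 (95% interval -0.20 to -0.04, limma adjusted p = 0.0356). Both genes carry the early-stop exons printed above, and both had every knockdown library below every control.

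SRSF1 and SRSF9 are close relatives with the same layout of RNA-binding domains, and SRSF1 fell while SRSF9 did not pass the test. SRSF1, the founding member known for splicing enhancement and for its role as an oncoprotein (ENSG00000136450, chromosome 17, 58003360 to 58007346, minus strand), measured 31.8, 33.3 and 34.7 FPKM in control libraries, against 30.5, 27.7 and 29.7 FPKM after knockdown. It fell by 11.8%, with a log2 fold change of -0.18 (95% interval -0.29 to -0.06, limma adjusted p = 0.0427). The highest knockdown and the lowest control library differed by less than the spread within either group. Exons of AC015813.2, on the same strand, cover 56.6% of the exon bases of SRSF1, the largest such share among the members, and this gene was at most at 0.0347 FPKM. Exons of AC015813.5, on the opposite strand, cover 13.2%, and it averaged 1.35 ± 0.32 FPKM in control and 1.38 ± 0.21 FPKM in knockdown libraries. SRSF9 (ENSG00000111786, chromosome 12, 120461668 to 120469793, minus strand) measured 21.2, 21.2 and 21.3 FPKM in control libraries, against 20.9, 22.1 and 22.3 FPKM after knockdown, and the groups overlapped. Its log2 fold change was 0.03, with a 95% interval of -0.05 to 0.12 that leaves out a fall of the size seen in SRSF1 (limma adjusted p = 0.553). The difference between the changes of these genes was not tested. Exons of GATC on the opposite strand cover 46.2% of the exon bases of SRSF9. GATC averaged 11.9 ± 0.40 FPKM in control and 10.7 ± 0.88 FPKM in knockdown libraries (adjusted p = 0.133).

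SRSF4, SRSF5 and SRSF6 form a subgroup with a shared domain layout and long tails, and of these only SRSF6 passed the test. The differences between their changes were not tested. SRSF6 (ENSG00000124193, chromosome 20, 43457928 to 43464247, plus strand) measured 30.0, 36.1 and 32.4 FPKM in control libraries, against 26.2, 27.7 and 26.8 FPKM after knockdown. It fell by 18.1%, the second largest difference of the family, with a log2 fold change of -0.28 (95% interval -0.43 to -0.12, limma adjusted p = 0.025). SRSF5 (ENSG00000100650, chromosome 14, 69726900 to 69772005, plus strand) measured 18.5, 18.5 and 18.6 FPKM in control libraries, against 16.7, 16.8 and 17.5 FPKM after knockdown. The groups did not overlap, and its log2 fold change of -0.12 (95% interval -0.20 to -0.03) just missed the threshold (limma adjusted p = 0.0511). SRSF4 (ENSG00000116350, chromosome 1, 29147743 to 29181987, minus strand) measured 10.4, 10.5 and 11.9 FPKM in control libraries, against 11.8, 10.8 and 10.4 FPKM after knockdown. Its groups overlapped across their whole range, with a log2 fold change of 0.005 and a 95% interval of -0.15 to 0.16 (limma adjusted p = 0.964). The RNA gene AL357500.2, which overlaps SRSF4, was listed at 0.

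SRSF11, a more distant member of the family, was not called. SRSF11 (ENSG00000116754, chromosome 1, 70205682 to 70253052, plus strand) measured 15.4, 15.0 and 15.1 FPKM in control libraries, against 14.7, 14.0 and 13.1 FPKM after knockdown. The groups did not overlap, but the knockdown libraries were spread more widely than the controls. Its log2 fold change was -0.12 (95% interval -0.23 to -0.01, limma adjusted p = 0.117).

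**Figure D2:**
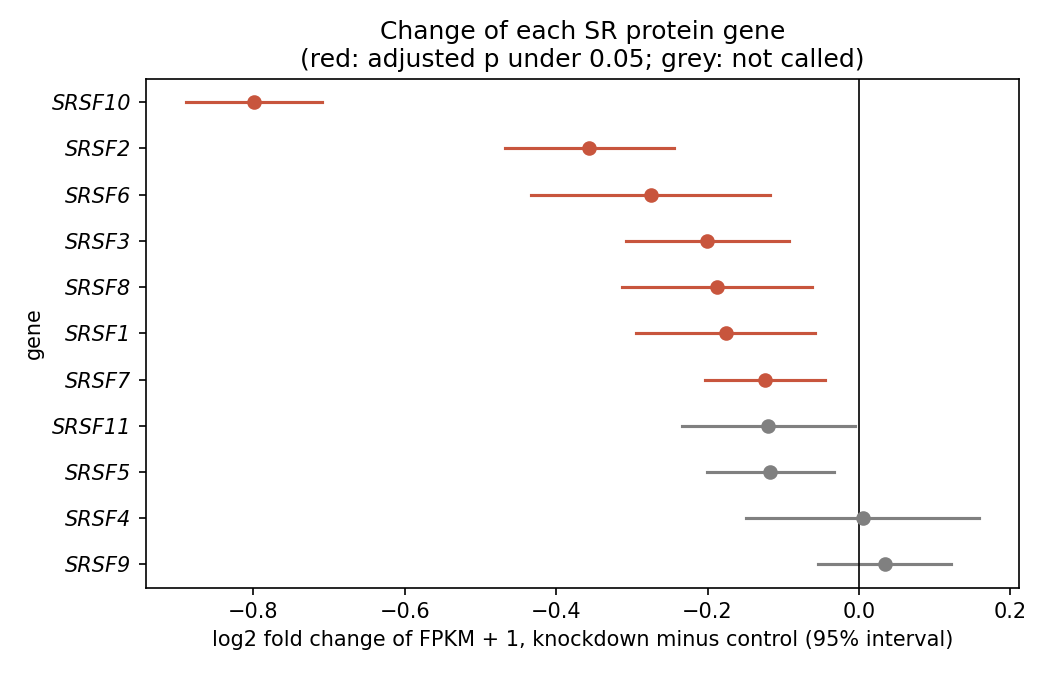
Log2 fold change of FPKM + 1, knockdown minus control, with 95% intervals from limma for each SR protein gene and SRSF10. The 6 members called lower (red) run from -0.36 for SRSF2 to -0.12 for SRSF7, while SRSF4 and SRSF9 sit at 0.005 and 0.03.

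Only the call for SRSF2 held under all 14 alternative processings, with log2 fold changes of -0.39 to -0.31 and adjusted p of 0.00112 to 0.0163. The direction was more stable than the calls: SRSF1, SRSF2, SRSF3, SRSF5, SRSF6, SRSF7, SRSF8 and SRSF11 were lower under all 14, SRSF9 was higher under all 14, and SRSF4 was lower under 3 of 14. SRSF3 passed under 10 of 14 alternatives, SRSF6 under 9, SRSF8 under 6, SRSF1 under 4 and SRSF7 under 3. For SRSF8 these include the 5 FPKM filter, which it passed through its control libraries alone, since every knockdown library lay under 5 FPKM. Without knockdown replicate 1, 2 or 3, SRSF2 was the only member still called, with 1 of 10 each time. The adjusted p was then 0.0574 to 0.0642 for SRSF3, 0.0537 to 0.0776 for SRSF6, 0.0552 to 0.123 for SRSF1, 0.0604 to 0.124 for SRSF7 and 0.0882 to 0.127 for SRSF8. Without control replicate 3 the call was also lost for SRSF6 (adjusted p = 0.0522), SRSF1 (0.1), SRSF7 (0.0812) and SRSF8 (0.102), without control replicate 2 for SRSF1 (0.0912) and SRSF8 (0.104), and without control replicate 1 for SRSF7 (0.0925). Control replicate 2 was the highest control for SRSF2, SRSF3 and SRSF6. Without it their log2 fold changes were -0.31, -0.15 and -0.21, and all 3 still passed (adjusted p = 0.00398, 0.0246 and 0.034).

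**Figure D3:**
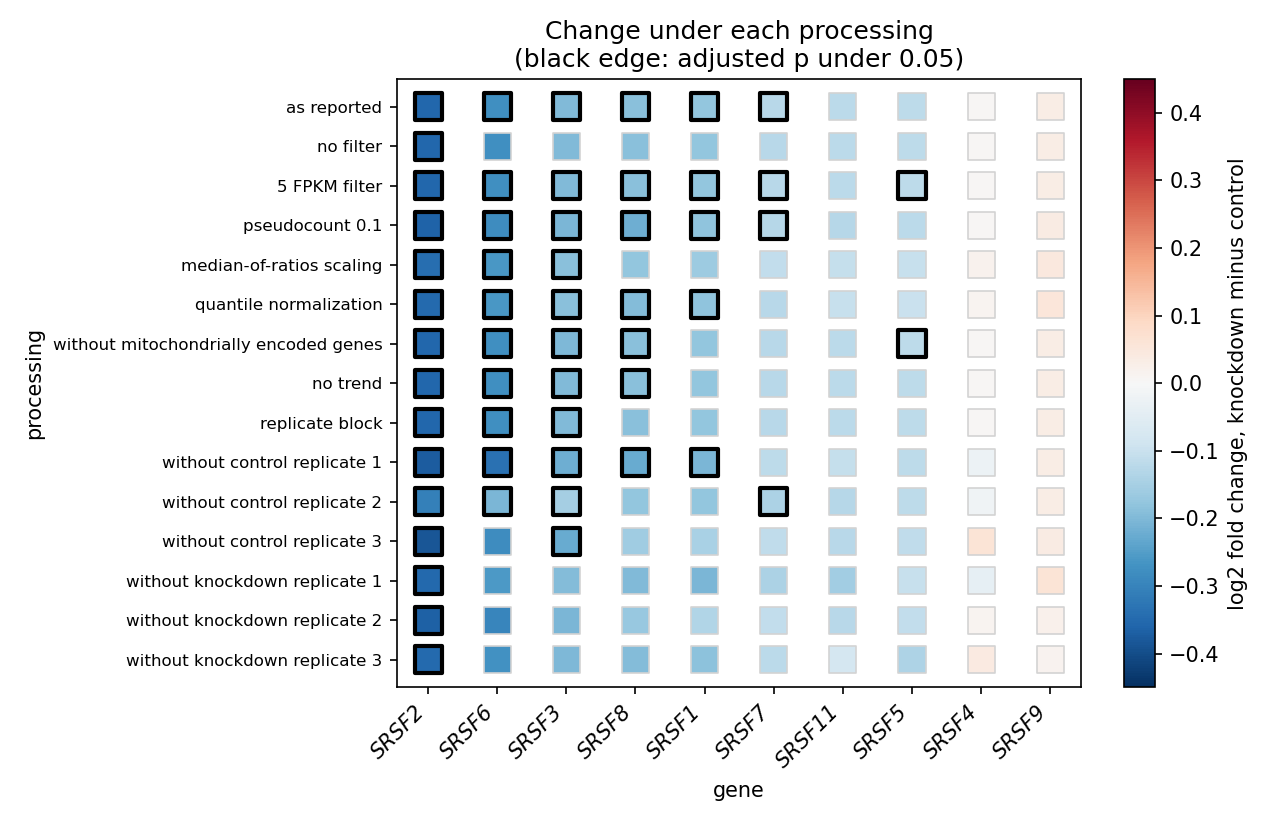
Log2 fold change (colour) of each SR protein gene under the reported processing and 14 alternatives, with a black edge where the adjusted p was under 0.05. Only SRSF2 has a black edge in every row, and the 8 members on the left are blue throughout.

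Together the 10 genes summed to 267, 283 and 274 FPKM in the controls and to 242, 240 and 240 FPKM in the knockdown. The mean sum went from 275 ± 8.0 to 241 ± 1.0 FPKM, 12.4% lower. The sum is a description and was not tested. SRSF2 made up 19.4% ± 0.73 of it in the controls and 17.2% ± 0.29 in the knockdown, while SRSF9 made up 7.74% ± 0.24 and 9.05% ± 0.36. Shares of a sum move together, so a rise in the share of SRSF9 does not show a rise in its level. The order of the 10 genes by mean FPKM was the same in both groups: SRSF2, SRSF3, SRSF7, SRSF1, SRSF6, SRSF9, SRSF5, SRSF11, SRSF4 and SRSF8. Among neighbours in that order, only SRSF1 (31.8 to 34.7 FPKM) and SRSF6 (30.0 to 36.1 FPKM) had control values that overlapped. These levels depend on the gene lengths the authors divided by, and the sources used here do not state them.

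Genes of the proteins that phosphorylate, dephosphorylate or import SR proteins were read in the same fit. Of 13 such genes 12 were tested, 3 fell, 0 rose and 9 did not pass (limma, adjusted p under 0.05). At the same threshold 12.5% of all tested genes fell and 12.6% rose. At an unadjusted limma p under 0.05, 4 of the 12 were lower and 1 higher. Over all 12191 tested genes that unadjusted threshold gave 2349 lower and 2214 higher. The list had a median log2 fold change of -0.07. SRPK1, the main cytoplasmic kinase of the SR tail, fell from 24.9 ± 1.1 to 20.3 ± 0.071 FPKM. The kinase PRPF4B fell from 25.1 ± 0.76 to 21.8 ± 0.75 FPKM, and TNPO3, the receptor that carries phosphorylated SR proteins into the nucleus, from 41.5 ± 0.77 to 37.6 ± 0.84 FPKM. Without knockdown replicate 2 or 3 the list had 1 lower member each time.

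Genes of other nuclear proteins with arginine and serine rich stretches were also examined. Of 31 listed genes 29 were tested, 13 fell, 1 rose and 15 did not pass (limma; 12.5% of all tested genes fell and 12.6% rose), with a median log2 fold change of -0.13. BCLAF1 fell from 32.2 ± 1.1 to 24.5 ± 0.43 FPKM, the exon junction partner PNN from 61.04 ± 1.5 to 48.8 ± 0.61 FPKM, the cyclophilin NKTR from 8.87 ± 0.34 to 6.31 ± 0.31 FPKM and the splicing activator TRA2B from 20.7 ± 0.4996 to 17.3 ± 0.042 FPKM. RSRP1 rose from 2.69 ± 0.13 to 3.36 ± 0.09 FPKM. That call was lost without control replicate 1 or 3 and without any 1 of the knockdown libraries, and those lower numbered 7 without control replicate 1 or knockdown replicate 2 or 3.

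Among genes of the decay factors, which clear early-stop transcripts, 4 of 14 fell and 0 rose (limma, adjusted p under 0.05). At the same threshold 12.5% of all tested genes fell and 12.6% rose. At an unadjusted limma p under 0.05, 7 of the 14 were lower and 1 higher. Over all 12191 tested genes that unadjusted threshold gave 2349 lower and 2214 higher. Leaving out any 1 library left 1 or 2 lower members. The list had a median log2 fold change of -0.105. UPF3A fell from 3.42 ± 0.22 to 2.57 ± 0.09 FPKM, UPF2 from 10.3 ± 0.37 to 8.93 ± 0.17 FPKM and UPF3B from 21.7 ± 1.4 to 19.1 ± 0.6 FPKM. The central helicase UPF1 averaged 12.2 ± 0.4 FPKM in control and 11.9 ± 0.16 FPKM in knockdown libraries (adjusted p = 0.595). UPF1 was named after its value was seen.

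**Figure D4:**
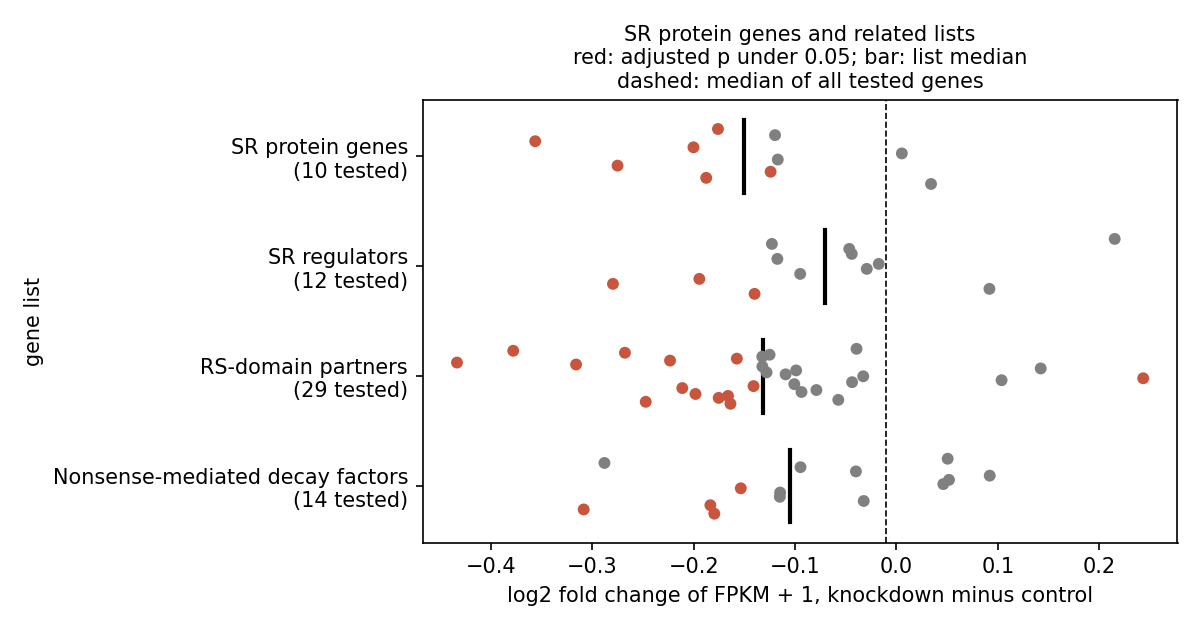
Log2 fold change of FPKM + 1, knockdown minus control, for every tested gene of 4 lists (red, adjusted p under 0.05) with each list's median (bar) and the median of all tested genes (dashed, -0.01). The medians of the SR protein genes, the SR regulators, the partners and the decay factors are -0.15, -0.07, -0.13 and -0.105.

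Promoter windows from RefSeq (GRCh38.p14, 250 bases before to 50 after a start) matched 9 of the 10 SR genes, with 12 windows in all. SRSF2 had no window. The upstream 250 bases are printed for SRSF3, SRSF6 and SRSF7, with motifs in capitals. These members fell and their windows hold a motif searched, as is also the case for SRSF8, which is not printed. The motifs, on both strands, were the E-box CACGTG, the box CCAAT and the SP1 box GGGCGG.
SRSF3 upstream, chr6:36594112-36594361, plus strand: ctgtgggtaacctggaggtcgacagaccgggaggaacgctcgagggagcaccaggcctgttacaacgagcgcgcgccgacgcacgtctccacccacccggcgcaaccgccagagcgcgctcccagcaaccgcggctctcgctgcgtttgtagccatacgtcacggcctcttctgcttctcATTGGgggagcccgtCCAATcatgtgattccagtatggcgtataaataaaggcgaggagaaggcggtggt
SRSF6 upstream, chr20:43457646-43457895, plus strand: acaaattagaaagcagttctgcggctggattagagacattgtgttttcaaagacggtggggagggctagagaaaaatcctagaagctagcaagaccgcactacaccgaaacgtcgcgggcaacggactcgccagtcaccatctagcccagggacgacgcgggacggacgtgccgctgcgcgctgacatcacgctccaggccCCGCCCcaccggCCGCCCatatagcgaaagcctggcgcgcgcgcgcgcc
SRSF7 upstream, chr2:38751495-38751744, minus strand: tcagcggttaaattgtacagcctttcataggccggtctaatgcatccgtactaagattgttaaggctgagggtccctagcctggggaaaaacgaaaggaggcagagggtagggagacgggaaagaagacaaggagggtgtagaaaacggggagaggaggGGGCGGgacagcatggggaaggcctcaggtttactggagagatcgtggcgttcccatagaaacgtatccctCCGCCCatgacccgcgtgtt

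The box CCAAT was in 3 of the 12 windows, against 34.6% of all 35116 windows. These were the window of SRSF3, where it occurs at 2 places, and the windows of SRSF8, which overlap each other. The box GGGCGG was in 5 of 12, against 45% of all windows. It was in the windows of SRSF6 and SRSF7, those of SRSF7 overlapping each other. It was also in windows of SRSF4 and SRSF11, which were not called lower. The E-box CACGTG was in 0 of 12, against 7.26% of all. No motif searched was in the windows of all members that fell and had a window, which leaves out SRSF2. A match is a description of the letters only.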

How the data were processed

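Gene expression was measured by RNA-seq in 3 control and 3 SRSF10 knockdown samples, grouped by the genotype label. Per the labels' protocols, RNA was extracted with TRIzol and sequenced on an Illumina NovaSeq instrument. The submitters' processing notes name Trim Galore 0.6.5-1, FastQC 0.11.9 and the build GRCh38. The sources used here do not give the aligner, counter, annotation or strand setting. Expression was deposited by the authors as FPKM, and no count model was run on these normalized values.

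Genes with at least 1 FPKM in at least 3 libraries (12191 of 60623) were tested with limma 3.58.1 in R 4.3.3 on log2(FPKM + 1), letting the variance follow mean expression and fitting the group alone. Benjamini-Hochberg adjustment covered every tested gene. Fold changes on that scale understate changes of low genes. Calls needed an adjusted p under 0.05. The limma fit was run on simulated data. The rule for passing covered only log2 changes of 1 up or down, larger than those of the SR genes. Depth was set, from a grid, where low values (at most 6.5 fragments) lay closest to whole fragments given exon lengths from GENCODE 29, and 87.8% to 88.4% of them then lay no more than 0.05 away. GENCODE 29 holds 12146 of the tested genes. Intervals and errors derived from it cover counting only. Python 3.11.15 and matplotlib 3.10.9 were used for depth, sequences and plots.

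The members and gene lists were chosen with earlier results of these data known. All members are named. From each related list up to 4 called genes per direction with the smallest adjusted p are named, as are genes whose exons overlap a member's. The values of 1 gene that this rule names are not reported here. Pseudogene copies of members are named only where they reach 1 FPKM, which none did. Planned comparisons of the members' protein sequences were not made. The alternatives were other filters, pseudocount, scalings, no trend, the replicate block and leaving out each library.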

Additional observations from a re-analysis of the deposited data

How the results depend on the processing

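The SR genes called lower numbered 6 as reported, 1 with no filter, 3 with median-of-ratios scaling and 1 to 5 when 1 library was left out. The 5 FPKM filter, the other pseudocount, quantile normalization, leaving out mitochondrially encoded genes and the fit with no trend gave 4 to 7. The 7 came with the 5 FPKM filter and include SRSF8, which passed that filter through its control libraries alone. Over all genes, those lower numbered 1013 with no filter and 964 to 1327 when 1 library was left out, and those higher 894 to 1352. The decay factors called lower numbered 4 as reported, and 2 with no filter, median-of-ratios scaling, quantile normalization or no trend, and 1 to 2 when 1 library was left out. Of the partners, 7 were lower with no filter and 7 to 10 when 1 library was left out, and the higher ones, 1 as reported, numbered 0 with no filter, 0 with the 5 FPKM filter, which removes that gene before the test, and 0 to 1 when 1 library was left out. Of the regulators, 1 was higher with the 5 FPKM filter, 0 to 1 when 1 library was left out, and 1 to 3 were lower then. The summed level in the knockdown was 241.7 FPKM with median-of-ratios scaling, against 240.6 as reported. SRSF10 was called lower under all 14 alternatives. SRSF5 was called lower with a 5 FPKM filter (adjusted p = 0.0468) and without mitochondrially encoded genes (0.0485). Scaling moved the median of all genes by less than 0.1 on the log2 scale.

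The labels link same-numbered samples by number alone. The correlations of their deviations were 0.016, 0.057 and -0.071, and those of unlike-numbered samples ran from -0.149 to 0.129. Samples did not all correlate best with their own number. With 3 samples per group such correlations cannot show whether same-numbered samples shared a batch. With the replicate block 3 SR genes (SRSF2, SRSF3 and SRSF6) and 8 partners were lower and 0 partners higher, and over all genes 1146 were lower and 1193 higher. The causes of these differences were not tested. Depth limits SRSF8 most, with 250 estimated fragments in its lowest library.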
